A study of Rattus norvegicus with 4 samples.

Results

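Dhodh and Kmo are a pair of mitochondrial enzymes that use flavin cofactors, and their transcripts were followed here in the maturing rat retina. They were found by their gene symbols in the platform's gene table, as 2 of 9653 genes, each measured by 1 probe among the 12750 probes with 1 symbol. Whole retinas of albino Lewis rats at 11 or 20 weeks of age were compared with retinas at 5 weeks. Rats were reared from birth under ordinary laboratory conditions with a daily light cycle, and no genotype, sex or treatment is named. Retinas were pooled before RNA extraction, and the amplified RNA of each older age was set against that of 5 weeks, one sample in Cy5 and the other in Cy3, on 4 two-colour arrays. Each older age had 2 arrays of opposite dye orientation.

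Dihydroorotate dehydrogenase, encoded by Dhodh, sits in the inner mitochondrial membrane. It carries FMN, oxidises dihydroorotate to orotate in de novo pyrimidine synthesis and passes the electrons to ubiquinone. Kynurenine 3-monooxygenase, encoded by Kmo, sits in the outer mitochondrial membrane, carries FAD and hydroxylates kynurenine, the main breakdown product of tryptophan. It stands at a branch point, since kynurenine goes through Kmo towards quinolinate and NAD, or through aminotransferases to kynurenic acid, which blocks NMDA receptors. In the brain, Kmo is mainly ascribed to microglia.

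Both genes were chosen by their measured changes at 11 and 20 weeks, in earlier results of these data. Each value given is a log2 ratio, older over 5-week retina, relative to the median of that array's named probes, and means are given ± SD over 2 arrays. Deposited ratios were read as Cy5 over Cy3, which is likely from the order of the ages in the titles but not stated. If they run the other way, "higher" and "lower" change places throughout. A ratio carries no absolute level, so it was not possible to check the tissue against its defining markers or to say how abundant either transcript was. In pooled whole retina, fewer cells of a type and less RNA per cell cannot be told apart. Nothing in the labels says whether the paired arrays used separate RNA, so spread and p-values measure arrays and may be technical. The dye weighed on many genes: of 9652 measured on all 4 arrays, 59.0% at 11 weeks and 45.9% at 20 weeks had a dye effect, 0.5 times the difference between the arrays of a pair, larger in size than their mean change. Across the same genes the turned ratios of the 2 arrays of a pair correlated at r = -0.30 for 11 weeks and 0.17 for 20 weeks, while those of arrays with the same dye orientation correlated at 0.68 and 0.59 (genes are not independent replicates). Without centring, the median of all genes was 0.06 for 11 weeks and 0.29 for 20 weeks.

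Dhodh was higher in the older retina on all 4 arrays. At 11 weeks its log2 ratio was 0.81 with the older retina in Cy5 and 1.10 with it in Cy3, and at 20 weeks it was 1.53 and 1.73. The mean was 0.95 ± 0.21 (SD, n = 2) at 11 weeks, a 1.94-fold ratio, and 1.63 ± 0.15 (SD, n = 2) at 20 weeks, a 3.10-fold ratio. Both 20-week values lay above both 11-week values, the nearest being 0.43 apart. As deposited, before any centring, the probe read 0.76 and 2.07 where the older retina carried Cy5, and -1.23 and -1.74 where it carried Cy3, so its sign turned with the dyes.

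Kmo followed almost the same course. At 11 weeks its log2 ratio was 0.91 (older retina in Cy5) and 0.99 (in Cy3), and at 20 weeks 1.44 and 1.71. The mean was 0.95 ± 0.06 (SD, n = 2) at 11 weeks, a 1.93-fold ratio, and 1.58 ± 0.19 (SD, n = 2) at 20 weeks, a 2.98-fold ratio. The 2 ages did not overlap for Kmo either, with 0.45 between the highest 11-week and the lowest 20-week value. The share of all genes without such an overlap was not counted. Dhodh differed from Kmo by -0.10 to 0.11 log2 units on the same array and was the higher of the pair on 3 of 4 arrays. Since both genes were selected on these values, they are a description, with no test.

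**Figure D1:**
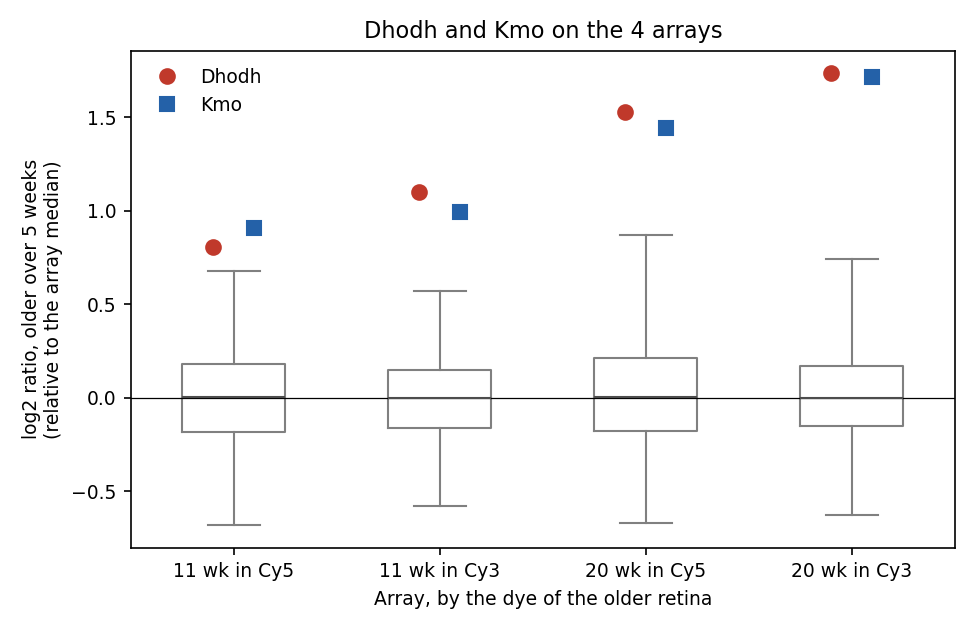
Log2 ratio of the older over the 5-week retina (y axis) on each array (x axis, by the dye of the older retina) for Dhodh (circles) and Kmo (squares). Boxes give the quartiles of all named genes on that array and whiskers the percentiles 1 and 99. Both genes lie above the upper whisker on all 4 arrays, from 0.81 to 1.10 at 11 weeks and from 1.44 to 1.73 at 20 weeks.

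Their position among all genes was near the top on each array. Of 9653 genes, Dhodh ranked 23 from the highest where the 11-week retina carried Cy5 and 4 on each of the other arrays. Kmo ranked 5 where the 20-week retina carried Cy5, an array with 9652 measured genes, and 6 on each of the others. By the lowest of its 4 values, Kmo ranked 1 at 0.91 and Dhodh 2 at 0.81, followed by Ccl2, the monocyte chemoattractant, at 0.79 and Tcam1, a testicular adhesion molecule, at 0.72. Values above 0 on all 4 arrays were found for 1114 genes, 11.5% of those measured. Between 20 and 11 weeks, a comparison made through the 5-week retina because no array held both, Dhodh differed by 0.68 and Kmo by 0.63, which put them at ranks 107 and 131 from the highest. Each array was a separate slide of 1 older age, and effects of slide and of age cannot be told apart.

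The dye effect on both genes was small beside their change, which their choice for a large change favours, so it is no check on them. Taken as the array with the older retina in Cy5 minus its dye-swapped partner, times 0.5, it was -0.15 and -0.10 for Dhodh at 11 and 20 weeks, and -0.04 and -0.14 for Kmo. Over all genes the median size of this dye effect was 0.13 at 11 weeks and 0.12 at 20 weeks.

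The genes with the most similar values were sought by Euclidean distance over the 4 arrays, among 9652 genes with all 4 values. Dhodh and Kmo were each other's nearest gene, at a distance of 0.17. Ccl2 came next for both, at 0.44 from Dhodh and 0.41 from Kmo, with values of 0.86 and 0.79 at 11 weeks and 1.70 and 1.48 at 20 weeks. The third was Rpf2, a ribosome assembly factor, at 0.61 and 0.55, with 0.66 and 0.89 at 11 weeks and 1.16 and 1.33 at 20 weeks. Ccl2 and Rpf2 lay above the median on every array, with both 20-week values above both 11-week values. Their choice for likeness to the 2 genes favours this pattern, and the share of all genes that have it was not counted.

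Beside each other, Dhodh and Kmo shared 8 of the 10 nearest genes. Besides Ccl2 and Rpf2 these were Tmc1, a mechanotransduction channel of hair cells, with means of 0.72 ± 0.39 and 1.14 ± 0.27 at 11 and 20 weeks, and Slc34a1, the renal phosphate transporter, with 0.90 ± 0.42 and 1.18 ± 0.75. Gchfr, the feedback regulator of GTP cyclohydrolase, had 0.66 ± 0.19 and 1.05 ± 0.01, and Tcam1 had 0.74 ± 0.03 and 1.02 ± 0.12. Cd52, a leukocyte surface antigen, had 0.65 ± 0.34 and 1.04 ± 0.42, and Bhlha15, a transcription factor of secretory cells, had 0.34 ± 0.10 and 1.69 ± 0.22. The last gene of each list differed. For Dhodh it was Insc, an adaptor of spindle orientation, at a distance of 1.17, and for Kmo it was Iyd, the iodotyrosine deiodinase, at 1.15. The next gene outside lay at 1.21 and 1.19. Distance favours genes of the same size of change: by cosine similarity, which ignores size, 3 of the 10 genes stayed on each list, and Dhodh and Kmo were no longer each other's nearest gene. Kmo then came at place 4 for Dhodh, after Rpf2, Cyp2c23 and Svbp, Dhodh came at place 3 for Kmo, after Muc1 and Rpf2, and Ccl2 left both lists. All 4 points share the 5-week age, and the arrays of a pair may share RNA.

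**Figure D2:**
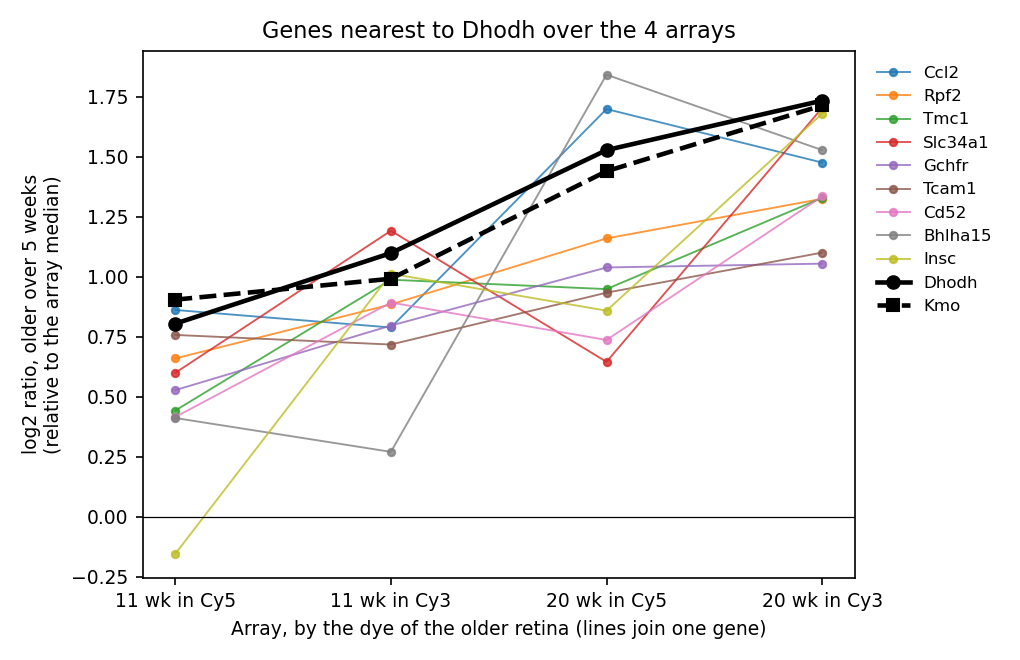
Log2 ratio of the older over the 5-week retina (y axis) on the 4 arrays (x axis) for Dhodh (thick solid line), Kmo (thick dashed line) and the other 9 genes among the 10 nearest to Dhodh. Dhodh and Kmo run closest to each other, while Insc and Bhlha15 leave the group at 11 weeks, at -0.15 and 0.27 on 1 array each.

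To see whether other enzymes of either pathway moved, limma was fitted over all 9653 genes in 2 forms, without and with a dye effect common to the 4 arrays, and "passed" means a Benjamini-Hochberg adjusted p under 0.05 in the form with the dye term. Without a dye term 0 genes passed at either age or between them, where 367, 888 and 270 genes had an unadjusted p under 0.05 at 11 weeks, at 20 weeks and between 20 and 11 weeks. With it, 2.61% of genes passed as higher and 6.34% as lower at 11 weeks, and 17.8% and 13.9% at 20 weeks. Every call below therefore holds only with the dye term and 1 residual degree of freedom. The count of each list below is to be read beside those shares of all genes. Values given below for leaving out an array come from the fit with a dye term on the other arrays. That fit takes the dye effect from the pair of the other age, so they are not the readings of the array that was kept. As deposited, without centring, 0 of the 16 named calls at 11 weeks and 5 of the 36 at 20 weeks passed. Those 5 were Apoa1, Cyp1a1, Etfb, Slc34a1 and Tyr. The named calls are those of the pathway, marker and neighbour genes named here, without genes picked out after their values were seen.

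The 2 partners of Dhodh in de novo pyrimidine synthesis did not pass at either age. Cad, which holds the upstream activities, was at 0.07 and 0.10 on the 11-week arrays and at 0.13 and -0.02 on the 20-week arrays, as the mean of 4 probes. Its probes disagreed where the older retina carried Cy3, and ran from -0.13 to 0.33 at 11 weeks and from -0.42 to 0.16 at 20 weeks. Umps, which turns orotate into UMP, was at 0.12 and -0.25 at 11 weeks and at -0.07 and -0.04 at 20 weeks. The highest value of any single probe of either gene on any array was thus 0.33, against a lowest value of 0.81 for Dhodh.

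Further along, 0 of 14 genes that form pyrimidine nucleotides passed as higher and 2 as lower at 11 weeks, and 1 and 1 at 20 weeks, with list medians of -0.05 at both ages (the median of all genes was 0.02 and 0.01). Cmpk1, the kinase that makes UDP and CDP, fell to -0.34 ± 0.16 at 11 weeks (adjusted p of 0.0219 in limma with a dye term) and -0.36 ± 0.05 at 20 weeks (0.0057). Leaving out the array with the older retina in Cy5 gave -0.19 and -0.51 for Cmpk1 at the 2 ages, and leaving out its partner gave -0.49 and -0.21. Dut, the dUTPase, fell to -0.25 ± 0.03 at 11 weeks and was at -0.16 ± 0.09 at 20 weeks, where it did not pass. Nme3, a nucleoside diphosphate kinase, was at -0.04 ± 0.04 at 11 weeks and rose to 0.25 ± 0.21 at 20 weeks (0.07 without the Cy5 array of the older retina and 0.43 without the Cy3 array).

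Of 17 pyrimidine salvage and breakdown genes, 0 passed as higher and 1 as lower at 11 weeks, and 4 and 3 at 20 weeks, with medians of 0.03 and -0.02. At 20 weeks 17.8% of all genes passed as higher and 13.9% as lower. Upb1, the last enzyme of pyrimidine breakdown, rose to 0.39 ± 0.36 at 20 weeks. Among nucleoside carriers, Slc28a2 passed as higher at 0.39 ± 0.69, with 0.88 and -0.09 on its arrays, and Slc28a3 as lower at -0.35 ± 0.13. Without the Cy5 array of the 20-week retina Slc28a3 was at -0.07, and without its Cy3 array at -0.63. Of 10 purine synthesis genes, 0 passed at 11 weeks and 1 as higher at 20 weeks, with medians of -0.01 and 0.03. It was Atic, which closes the purine ring, at 0.44 ± 0.13, while Prps1 was at -0.16 ± 0.05 and Pfas at -0.12 ± 0.22 without passing.

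In the kynurenine pathway, 2 of the 3 enzymes from the product of Kmo to the precursor of NAD were higher at both ages. Of 9 measured genes, 2 passed as higher and 2 as lower at 11 weeks, and 3 and 1 at 20 weeks, with medians of 0.05 and 0.08. The shares of all genes were 2.61% and 6.34% at 11 weeks and 17.8% and 13.9% at 20 weeks. Kynu, kynureninase, which takes the product of Kmo further, was at 0.31 and 0.36 on the 11-week arrays and at 0.39 and 0.36 on the 20-week arrays. Its mean was 0.34 ± 0.03 at 11 weeks (adjusted p of 0.0151 in limma with a dye term) and 0.37 ± 0.02 at 20 weeks (0.00299). Qprt, which turns quinolinate into a precursor of NAD, was at 0.34 and 0.26 at 11 weeks and at 0.36 and 0.30 at 20 weeks. Its means were 0.30 ± 0.05 (0.0233) and 0.33 ± 0.04 (0.00497). Both genes lay above the median gene on all 4 arrays, and neither passed between 20 and 11 weeks, with differences of 0.04 and 0.03 (3.55% of all genes passed there as higher and 1.18% as lower). Haao, the enzyme between them, was at 0.09 ± 0.09 and 0.05 ± 0.12 and did not pass. Genes of the later steps to NAD are in the list of NAD synthesis and salvage below. Of these, Nadsyn1 and Nmnat1 were picked out after their values were seen. Nadsyn1 was at -0.002 ± 0.35 and 0.03 ± 0.17 and Nmnat1 at 0.02 ± 0.64 and -0.10 ± 0.56, and neither passed. Nmnat2 and Nmnat3 passed as higher at 20 weeks only.

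The 2 measured aminotransferases that make kynurenic acid passed as lower at 11 weeks, and neither passed there with arrays centred on the median of all probes. Aadat, an aminotransferase, was at -0.53 and -0.15 on the 11-week arrays and at -0.29 and -0.36 on the 20-week arrays. Its means of -0.34 ± 0.27 (adjusted p of 0.035 in limma with a dye term) and -0.32 ± 0.05 (0.0172) passed as lower. The next values take the dye effect from the pair of the other age. Without the Cy5 array of the older retina Aadat was at -0.11 at 11 weeks and -0.55 at 20 weeks. Without the Cy3 array it was at -0.56 and -0.09, while its 20-week arrays themselves read close together. Kyat3, a second aminotransferase, passed as lower at 11 weeks with -0.29 ± 0.06 (-0.18 without the array with the older retina in Cy5) and was at -0.01 ± 0.09 at 20 weeks. Acmsd, which diverts the pathway away from quinolinate, was at 0.01 ± 0.25 and 0.11 ± 0.12.

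The entry to the pathway showed no common direction. Tdo2, which opens the ring of tryptophan, was at 0.05 ± 0.36 and 0.08 ± 0.33, and Afmid, the formamidase that yields kynurenine, at 0.18 ± 0.22 and 0.03 ± 0.01, and neither passed. Ido1, the interferon-inducible enzyme of the same step as Tdo2, was at -0.02 and -0.30 on the 11-week arrays and at 0.20 and 0.24 on the 20-week arrays. It passed as higher at 20 weeks with 0.22 ± 0.03 (adjusted p of 0.0457 in limma with a dye term). With the dye effect taken from the 11-week pair, it was at 0.38 without its Cy5 array and 0.06 without its Cy3 array. The call at 20 weeks was lost with arrays centred on all probes and with arrays scaled to one spread.

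**Figure D3:**
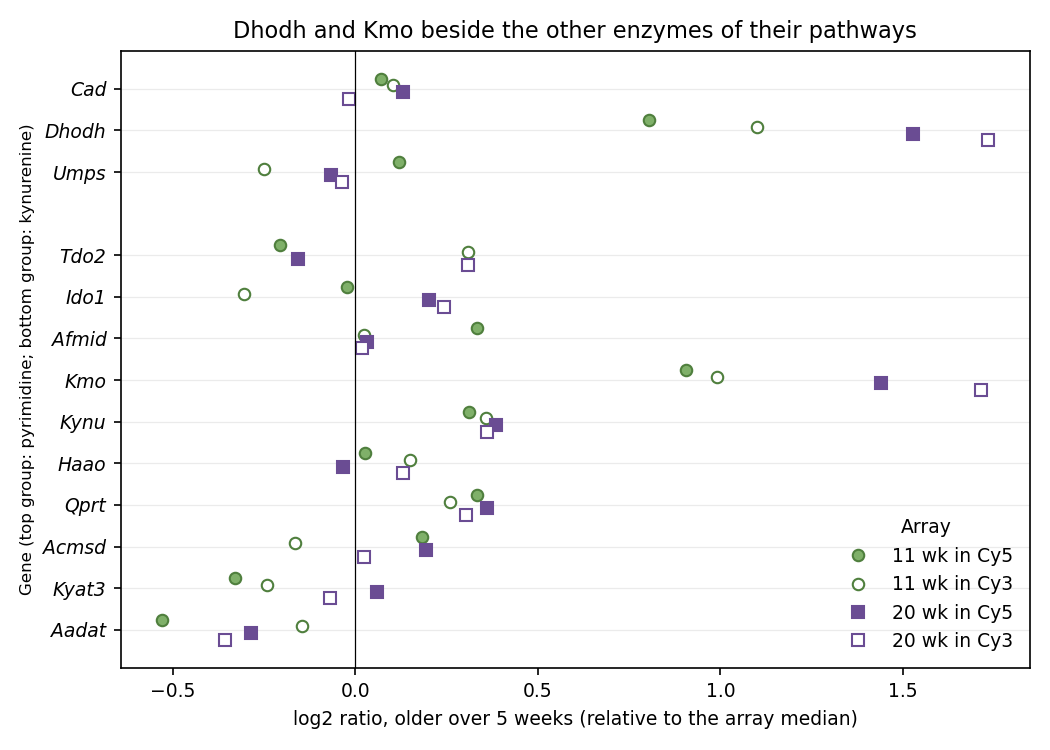
Log2 ratio of the older over the 5-week retina (x axis) for the measured enzymes of pyrimidine synthesis (top) and of the kynurenine pathway (bottom), with 1 point per array (circles 11 weeks, squares 20 weeks; filled, older retina in Cy5; open, in Cy3). Dhodh and Kmo stand at 0.81 or above, Kynu and Qprt between 0.26 and 0.39, and Aadat between -0.53 and -0.15.

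Of 11 genes of NAD synthesis and salvage, 0 passed at 11 weeks and 2 as higher at 20 weeks, with medians of 0.07 and 0.03. Nmnat3, the mitochondrial adenylyltransferase of NAD synthesis, was at 0.26 ± 0.17, and its 2 probes disagreed where the 20-week retina carried Cy3, at 0.51 and -0.22. Nmnat2, the axonal form, was at 0.21 ± 0.09 (0.12 without its Cy3 array), and Nmrk1 was at 0.12 ± 0.23 without passing. Of 11 genes of tryptophan uptake and its other fates, 0 passed at either age, with medians of 0.04 and 0.12, and Maoa, Maob and Asmt, the last enzyme of melatonin synthesis, were at 0.20 ± 0.26, 0.13 ± 0.01 and 0.19 ± 0.03 at 20 weeks.

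Among targets of kynurenine metabolites, 6 of 10 measured genes passed as higher at 20 weeks, 1 as lower, and 3 did not pass. Of all genes, 17.8% passed as higher and 13.9% as lower at that age. At 11 weeks 0 of the 10 passed, and the list medians were 0.05 and 0.23. As deposited, 1 of the 6, Cyp1a1, passed. Cyp1a1, the classic target gene of the aryl hydrocarbon receptor, was at -0.09 and -0.24 on the 11-week arrays and at 0.98 and 0.51 on the 20-week arrays, and its 20-week mean of 0.75 ± 0.34 had an adjusted p of 0.000157 in limma with a dye term. Ahr, the receptor itself, to which kynurenine binds, was at 0.35 ± 0.02 at 20 weeks, with 0.33 and 0.36 on its arrays. With the dye effect taken from the 11-week pair, it was at 0.59 without its Cy5 array and 0.10 without its Cy3 array. Grin2c, an NMDA receptor subunit, was at 0.45 ± 0.25. Another 2 genes of the list were picked out after their values were seen. Cyp1b1, also a target gene of the receptor, was at 0.09 ± 0.15 at 20 weeks and did not pass. Grin1, the obligatory NMDA receptor subunit, was the one that passed as lower, at -0.25 ± 0.26 (-0.37 without its Cy5 array, -0.13 without its Cy3 array). It did not pass with arrays scaled to one spread and was at 0.03 as deposited.

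The other mitochondrial flavoenzymes lay on both sides of the median gene. Of 26 measured genes, 1 passed as higher and 2 as lower at 11 weeks, and 5 and 4 at 20 weeks. The list medians were 0.05 and 0.07 and the highest change 0.31 and 0.65. Of all genes, 2.61% passed as higher and 6.34% as lower at 11 weeks, and 17.8% and 13.9% at 20 weeks. Above 0 on all 4 arrays were 10 of the 26, against 11.5% of all genes, and below 0 on all 4 were 2. The share of all genes below 0 on all 4 was not counted, so the 10 and the 2 cannot be weighed against each other. Etfb, a subunit of the electron-transferring flavoprotein, was at 0.05 ± 0.21 at 11 weeks and rose to 0.65 ± 0.19 at 20 weeks. Etfa, the other subunit, and Etfdh were picked out after their values were seen. Etfa passed as lower at both ages, at -0.29 ± 0.15 and -0.20 ± 0.07. Etfdh passed as lower at 20 weeks, at -0.21 ± 0.20. As deposited, 0 genes of the list passed as lower. Acad10, an acyl-CoA dehydrogenase, rose at both ages, to 0.31 ± 0.05 and 0.48 ± 0.18, mostly through 1 of its 2 probes, which read 0.70 and 0.88 on the 20-week arrays where the other read 0.02 and 0.34. Ndufv1, the FMN subunit of complex I, was at -0.02 ± 0.09 at 11 weeks and fell to -0.37 ± 0.0007 at 20 weeks.

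Genes of flavin supply and of ubiquinone, the electron acceptor of Dhodh, were read next. Of 3 measured genes of riboflavin uptake and flavin synthesis, 0 passed as higher and 1 as lower at 11 weeks, and 0 at 20 weeks. The riboflavin carrier genes Slc52a2 and Slc52a3 were at 0.08 ± 0.03 and -0.05 ± 0.12 at 20 weeks. Slc25a32, a mitochondrial folate and flavin carrier, passed as lower at 11 weeks at -0.29 ± 0.51 (-0.11 without its Cy5 array and -0.47 without its Cy3 array), and was at -0.03 ± 0.26 at 20 weeks. It read -0.65 and 0.07 on the 11-week arrays, and its call was lost with arrays centred on all probes or scaled. Of 18 genes of ubiquinone synthesis and complex III, 0 passed as higher and 4 as lower at 11 weeks, and 1 and 4 at 20 weeks, with medians of -0.05 and -0.07. The complex III genes Uqcr11, Uqcrfs1 and Uqcrc1 were at -0.33 ± 0.41, -0.33 ± 0.22 and -0.30 ± 0.29 at 20 weeks and passed as lower. As deposited they were at -0.05, -0.05 and -0.02, and 0 genes of the list passed. Uqcrq, also of complex III and picked out after its values were seen, was the one that passed as higher, at 0.27 ± 0.14.

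**Figure D4:**
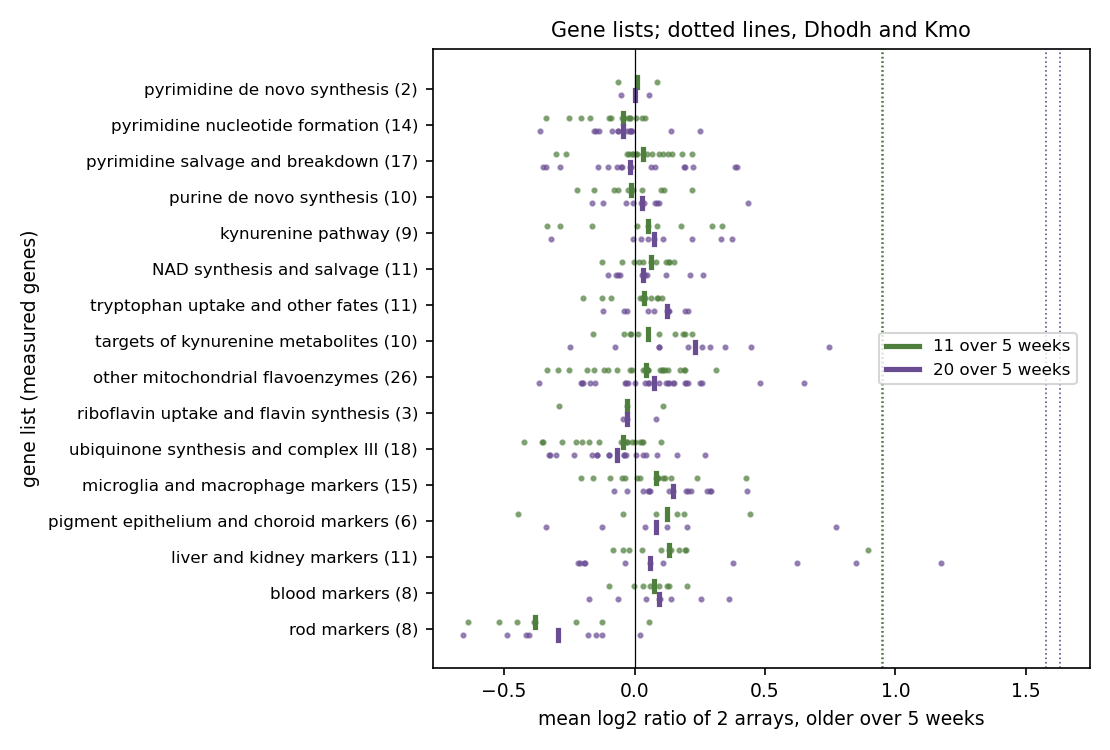
Mean log2 ratio of 2 arrays, older over 5 weeks (x axis), for the measured genes of each list (y axis, number of genes in parentheses), with 1 dot per gene and a bar at the list median, at 11 weeks (green) and 20 weeks (violet). Dotted lines mark Dhodh and Kmo at 0.95 (11 weeks), 1.58 and 1.63 (20 weeks), beyond every list gene of the same age; the nearest is Slc34a1 at 0.90 and 1.18.

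Markers of other cells that a retina or its dissection can hold were read beside the 2 genes. Of 15 microglia and macrophage markers, 2 passed as higher and 0 as lower at 11 weeks, and 5 and 0 at 20 weeks. Among all genes, 2.61% passed as higher and 6.34% as lower at 11 weeks, and 17.8% and 13.9% at 20 weeks. The list medians were 0.02 and 0.06 on the 11-week arrays and 0.12 and 0.07 on the 20-week arrays. The 3 with the largest change at 20 weeks are named first. Tyrobp, a microglial signalling adaptor, was at -0.16 ± 0.21 at 11 weeks and at 0.43 ± 0.26 at 20 weeks. C1qb was at -0.05 ± 0.49 and 0.29 ± 0.49, with 0.64 and -0.06 on the 20-week arrays, and C1qc at 0.24 ± 0.34 and 0.29 ± 0.31. Picked out after their values were seen, Ptprc was at -0.21 ± 0.11 and -0.08 ± 0.04, P2ry12 at 0.11 ± 0.32 and -0.03 ± 0.27, and Cx3cr1 at 0.14 ± 0.14 and 0.03 ± 0.13. These did not pass at either age. The part of microglia and macrophages in the change of Kmo was not tested. The list medians of the gene means were 0.08 at 11 weeks and 0.15 at 20 weeks. The highest mean of any marker of this list was 0.43 at each age. At 11 weeks it was that of Mrc1, the macrophage mannose receptor, picked out after its values were seen, which passed as higher at 0.43 ± 0.69. Mrc1 read -0.06 and 0.92 on the 11-week arrays.

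Of 11 liver and kidney markers, the tissues where Kmo is abundant, 1 passed as higher at 11 weeks, and 4 as higher and 2 as lower at 20 weeks. Among all genes, 2.61% passed as higher at 11 weeks, and 17.8% as higher and 13.9% as lower at 20 weeks. The list medians lay between -0.07 and 0.19 on the 4 arrays. Slc34a1 was the one at 11 weeks. Apoa1 was at 0.85 ± 0.50 at 20 weeks and Apoh at 0.62 ± 0.69, the latter 1.11 on 1 array and 0.13 on the other. The 2 that passed as lower, named after their values were seen, were Aqp2, the water channel of the collecting duct, at -0.22 ± 0.21 and Slc22a8, a renal organic anion transporter, at -0.21 ± 0.17, which as deposited were at 0.06 and 0.07. Of 6 pigment epithelium and choroid markers, 1 passed as higher and 1 as lower at 11 weeks and 2 and 1 at 20 weeks, with list medians between -0.07 and 0.17. Tyr, tyrosinase, which is mutated in albino rats, was at 0.44 ± 0.37 and 0.77 ± 0.16. Tyrp1 passed as lower at -0.34 ± 0.16 at 20 weeks (-0.54 without its Cy5 array and -0.14 without its Cy3 array), and Lrat as higher at 0.20 ± 0.01. Of 8 blood markers, 0 passed at 11 weeks and 2 as higher at 20 weeks, with list medians between 0.00 and 0.14. These were S100a9 at 0.36 ± 0.12 and Alas2 at 0.25 ± 0.68 (0.39 without its Cy5 array and 0.11 without its Cy3 array), and Cd74 was at -0.18 ± 0.04 without passing. The part of these tissues was not tested.

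Of 8 rod markers, 5 passed as lower at 11 weeks and 4 at 20 weeks, and 0 as higher, with medians of -0.38 and -0.29. Among all genes, 6.34% passed as lower at 11 weeks and 13.9% at 20 weeks. Rcvrn, Prph2 and Gnat1 were at -0.66 ± 0.31, -0.49 ± 0.43 and -0.42 ± 0.41 at 20 weeks. Gnat1 read -0.12 and -0.71 on the 20-week arrays. With the dye effect taken from the 11-week pair, it was at -0.14 and -0.69 without the array with the older retina in Cy5 and in Cy3. The part of rods in the ratios of Dhodh and Kmo was not tested.

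Genes next to Dhodh and Kmo on their chromosomes were read as well, in the RefSeq gene order of the GRCr8 assembly. Of the 3 protein-coding neighbours on each side of Dhodh, 2 had a named probe. Dhx38, a splicing helicase, was at -0.04 ± 0.09 and 0.03 ± 0.12, and Ist1, of the membrane scission machinery, at -0.001 ± 0.20 and -0.01 ± 0.37, and neither passed. For Kmo these were Rgs7, a regulator of G protein signalling, at -0.29 ± 0.98 and 0.06 ± 0.46, which did not pass, and Opn3, an opsin found outside photoreceptors. Opn3, the next gene after Kmo, was at 0.17 and 0.28 on the 11-week arrays and at 0.22 and 0.32 on the 20-week arrays. Its mean of 0.22 ± 0.08 at 11 weeks did not pass (adjusted p of 0.0613 in limma with a dye term), and that of 0.27 ± 0.07 at 20 weeks passed (0.0133).

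The start of the RefSeq promoter window of Kmo is shown because Kmo responds to interferon in other settings and Ido1, the interferon-inducible enzyme of the same pathway, was measured beside it. The window, on the plus strand of GRCr8, runs over chr13:90089271-90089570, and the 69 bases printed, chr13:90089271-90089339, lie before the start that the RefSeq gene table gives for Kmo. That start is at 90089340, while the window was drawn around a transcription start at 90089521, with 250 bases before it. By the gene table, most of the window thus lies inside the gene. Capitals mark a match to 2 copies of GAAA with 2 bases between them, the core of interferon-stimulated response elements, a motif picked after the sequence had been read.
Kmo: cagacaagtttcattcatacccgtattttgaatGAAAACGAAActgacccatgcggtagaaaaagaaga
This pattern was found on either strand in 3.92% of 33469 promoter windows of the same table. Of 4 other motifs searched on both strands of the whole Kmo window, CCAAT had 1 match (37.5% of all windows hold it), while TATAAA (14.2%), GGGCGG (33.1%) and TGACNNNGC (12.1%) had 0. A match is a description of letters and says nothing of a factor at work in these retinas. Dhodh has no window in that table.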

How the data were processed

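Per the labels' protocols, RNA of pooled whole retinas was purified on columns, amplified and labelled with Cy5 or Cy3. How the arrays were scanned and normalized is not given in the sources used here. What the authors deposited are log2 ratios of the channels, judged from the values, which reach log2 of 100000 at most; their centring and direction are not stated, and medians over all probes were -0.05, -0.14, 0.55 and -0.03 (11 weeks in Cy5 and Cy3, 20 weeks in Cy5 and Cy3). Values at that ceiling were set to missing, which touched 0 named probes.

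Of 22575 probes, 12750 had 1 gene symbol in the platform's table, 5 had several and 9820 none; gene identifiers of 12720 were found in the GRCr8 gene table. Arrays were centred on the median of their named probes, ratios turned to older over 5 weeks, and probes averaged per gene. limma 3.58.1 (R 4.3.3) fitted both ages over the 4 arrays without a dye term (2 residual degrees of freedom) and with one (1), tested on simulated data. No intensities were used, so no background filter was made. The number of arrays limits the precision.

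The 2 genes and all lists were chosen with earlier results of these data known, and 16 lists were used. Named were the 10 nearest genes, all measured genes of the pyrimidine synthesis, kynurenine and flavin lists, the 3 genes of each other list with the largest change at 20 weeks, and the 3 neighbours on each side. Alternatives were other centring, scaling, single probes, leaving out each array and the direction turned.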

Additional observations from a re-analysis of the deposited data

Results flagged for a closer look

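Genes named beside Dhodh and Kmo were looked at for a difference between the 20-week and 11-week changes, tested in limma with a dye term and adjusted over all genes (3.55% passed as higher at 20 weeks and 1.18% as lower; without a dye term 0 passed, and 270 genes had an unadjusted p under 0.05). Cyp1a1, Apoa1, Etfb, Tyrobp, Upb1, Tyrp1 and Nme3 were named for the size of their change at 20 weeks, which enters this difference. For them the adjusted p is no fair test, and the shares of all genes are no fair measure beside them. Cyp1a1 was higher at 20 weeks by 0.91 (adjusted p of 0.00114), and Apoa1 by 0.93 (0.00149). Etfb was higher by 0.61 (0.00461), Tyrobp by 0.59 (0.00534) and Upb1 by 0.39 (0.0493). Tyrp1 differed by -0.53 (0.0253). Gngt1, a rod marker picked out after its values were seen, was higher by 0.52 (0.0112). Ido1 and Nme3 lay below the median gene on both 11-week arrays and above it on both 20-week arrays, with differences of 0.38 and 0.29 that did not pass (adjusted p of 0.0713 and 0.164). Dhodh and Kmo were not tested for this, since their values chose them.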

How the results depend on the processing

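With the direction turned, Dhodh stood at -0.95, -1.63 and -0.68 and Kmo at -0.95, -1.58 and -0.63 at 11 weeks, at 20 weeks and for 20 minus 11 weeks. As deposited, without centring, Dhodh was at 1.91 and Kmo at 1.85 at 20 weeks, and they were at 0.91 and 0.86 for 20 minus 11 weeks. Leaving out single arrays gave Kmo 0.86 to 1.04 at 11 weeks with a dye term. Centring on all probes and scaling moved both genes by less than the spread between the arrays of an age. With 1 probe for each gene, the setting of single probes could only return the same values. Counts of genes moved more. At 11 weeks 0 genes passed without a dye term and 864 with it, at 20 weeks 0 and 3057, and between 20 and 11 weeks 0 and 457. As deposited, with a dye term, 0, 133 and 1 passed, and without one 95 at 20 weeks and 1 between the older ages. Centring on all probes gave 451 at 11 weeks and 274 between the older ages, with a dye term. Leaving out 1 array without a dye term gave 0 to 5 genes at 20 weeks. With a dye term and 3 arrays no residual degree of freedom was left, so only values were given. Of the 16 named calls at 11 weeks, 9 held when centred on all probes (lost were Aadat, C1qc, Cmpk1, Dut, Gnat1, Kyat3 and Slc25a32) and 14 when scaled (without C1qc and Slc25a32). Of the 36 at 20 weeks, 32 held in each, without Ido1, Lrat and Nmnat2 in both, Nme3 when centred on all probes and Alas2 when scaled; the cause was not tested. A filter on dim probes and a background correction were not run, since ratios alone were used. No paired analysis was possible because the labels give the arrays chip numbers but no replicate numbers that pair the ages; the fit with a dye term is the one that links arrays of the same dye orientation.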
